A study of Rattus norvegicus with 2 samples.

Results

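The Krüppel-like factors (Klf proteins) described here are 10 of the 17049 genes in the deposited expression table, chosen as the rows whose symbol is Klf2, Klf3, Klf4, Klf5, Klf6, Klf7, Klf9, Klf10, Klf13 or Klf15. All 10 had a row, all 10 reached 1 TPM (a transcript level corrected for gene length and library total) in at least 1 library, and all had whole read numbers in both. The RNA came from cultured primary OPCs (oligodendrocyte precursor cells, the proliferating glia that mature into myelin-forming cells), taken from the brain of adult wild-type rats and grown in OGM medium at 37 °C with 5% CO2. In 1 group the cells were exposed for 2 days to 1 µM of the amyloid-β peptide (Aβ), which forms the plaques of Alzheimer's disease, and the control is labelled DMSO, a solvent. How many animals or cultures stand behind each library was not given. The comparison asks how these precursors respond to the peptide.

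Klf proteins are transcription factors with zinc fingers at the end of the protein that bind GC-rich and CACCC elements in DNA. The family falls into branches that recruit different partners: some members activate transcription through acetyltransferases, Klf3 represses through the CtBP corepressors, and Klf9, Klf10 and Klf13 repress through the Sin3 complex. In the oligodendrocyte lineage, Klf9 is known as a thyroid hormone-induced gene linked to differentiation, and Klf6 as a factor needed for myelination downstream of gp130 and STAT3 signalling. Several members are induced quickly by growth factors, cytokines, injury or hormones.

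The summed level of the 10 chosen genes came mainly from Klf3, Klf6 and Klf10, and the balance among these members differed between the libraries. Klf6 was 1.20-fold higher with Aβ, Klf10 was 1.09-fold higher, and Klf3 was lower at 0.877-fold. The remaining 7 genes had ratios from 1.05 to 1.20 whose counting intervals included 1. No member was 2-fold apart by TPM, where 0.501% of all genes were at least 2-fold higher and 0.493% lower, and none was 1.5-fold apart, where the shares were 1.56% and 1.34%. These ratios carried a pseudocount of 1, and the shares are over the 12980 genes that reached 1 TPM in either library. Each group had 1 library, so no difference had a replicate check and no p-value is given. Each 95% interval covers counting error only: the labels name no molecular identifiers, so reads cannot be taken as independent molecules. Where values come in pairs, the Aβ library is given first, and a ratio with its bounds in parentheses is the read ratio, Aβ over control, with its 95% counting interval.

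The promoters of Klf3 and Klf6, the members furthest below and above equality among those with an interval that excluded 1, are shown because they differ in the elements they hold. They are RefSeq sequences of the rat build GRCr8, from 250 bases before to 50 bases after the annotated start. Klf3 lies at chr14:43850777-43851076 and Klf6 at chr17:69458429-69458728, both on the minus strand. Capitals mark matches on either strand to CACCC (the KLF element), GGGCGG (the GC box), TGACG (the half-site contained in the cyclic AMP response element TGACGTCA), TATAAA, or the CArG box.
Klf3: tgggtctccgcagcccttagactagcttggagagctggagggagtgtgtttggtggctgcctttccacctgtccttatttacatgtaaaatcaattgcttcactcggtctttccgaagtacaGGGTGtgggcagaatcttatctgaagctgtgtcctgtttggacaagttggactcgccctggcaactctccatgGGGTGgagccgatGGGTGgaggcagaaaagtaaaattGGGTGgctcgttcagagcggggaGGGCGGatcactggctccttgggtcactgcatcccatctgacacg
Klf6: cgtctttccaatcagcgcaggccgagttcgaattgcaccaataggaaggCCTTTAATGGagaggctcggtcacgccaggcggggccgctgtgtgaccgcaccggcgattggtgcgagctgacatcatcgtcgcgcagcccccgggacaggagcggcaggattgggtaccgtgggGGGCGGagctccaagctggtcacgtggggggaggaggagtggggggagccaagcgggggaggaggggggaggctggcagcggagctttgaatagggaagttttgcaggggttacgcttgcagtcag
The Klf3 promoter held 4 matches to CACCC, all on the strand opposite to transcription, beginning 128, 55, 42 and 18 bases before the start. It also held a GC box that began 5 bases after the start. The Klf6 promoter held no CACCC. It held a CArG box, the binding element of serum response factor, 201 bases before the start and a GC box 76 bases before it.

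Promoter sequences were matched for 7 of the 10 members by symbol and gene number: Klf3, Klf4, Klf5, Klf6, Klf7, Klf9 and Klf15. Among them CACCC was found in 5 promoters, the GC box in 3, TGACG in 3, the CArG box in 1, TATAAA in 1 and the full TGACGTCA in 0. Of all 33469 rat promoters of this length, 54.9% held CACCC, 33.1% the GC box, 21.2% TGACG, 1.64% the CArG box, 14.2% TATAAA and 1.83% TGACGTCA. At least 4 matches to CACCC, as in Klf3, were held by 3.07%. Klf5 and Klf7 had 2 CACCC matches each, and Klf9 and Klf15 had 1 each. The half-site TGACG occurred in Klf5, Klf9 and Klf15, and Klf4 was the member with TATAAA, at 2 places. The windows ranged from 45% G and C in Klf4 to 77.3% in Klf15, against a median of 51.7% over all promoters. Their numbers of CpG ranged from 9 in Klf3 to 51 in Klf15, against a median of 7. A match to such letters is a description and not a bound site.

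**Figure D1:**
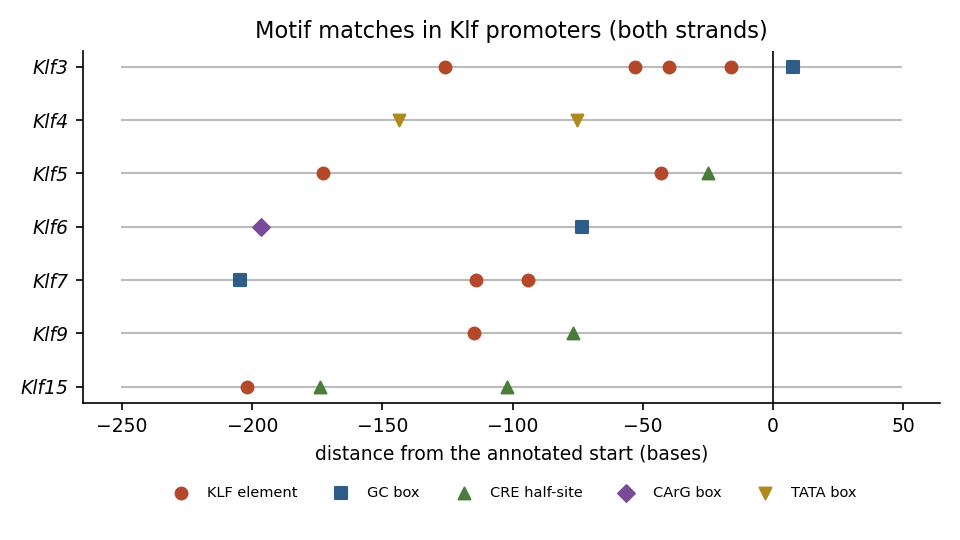
Matches to each motif in the promoters of 7 Klf genes, by distance in bases from the annotated start (vertical line). Circles are the KLF element, and Klf3 holds 4 of them before the start while Klf6 holds a CArG box and a GC box.

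The libraries held 15704932 estimated reads with Aβ and 15663751 in the control, and a count of 0 would allow up to 3 reads, or 0.191 and 0.192 CPM (reads scaled to the library total). The labelled cell type was checked on fixed markers. Their interval counts are to be read beside all 12980 measured genes, of which 12% had an interval above 1 and 12.5% one below. Among genes with 2000 or more reads, to which several markers belong, the interval excluded 1 for 36.8%. OPC markers summed to 2688 and 2895 TPM (Aβ and control). Most of it came from Olig1 (1420.5 and 1557.4 TPM), Ptprz1 (866 and 905) and Olig2 (336 and 375). Pdgfra stood at 23.2 and 24.6 TPM and Cspg4 at 6.65 and 3.70. In all, 10 of 13 genes were at 1 TPM or more, but Sox10 had only 22 and 33 reads and Gpr17 4 and 5. Of these 10, 2 had an interval above 1, Cspg4 (1.78, 1.54 to 2.05) and C1ql1 (1.95, 1.32 to 2.91), and 4 had one below 1, Olig1 (0.908, 0.893 to 0.923), Olig2, Ptprz1 and Pdgfra. Astrocyte markers were also present, with all 7 measured, 3 above and 3 below 1 by interval, and sums of 1995 and 1974 TPM, Gfap among them at 328 and 368 TPM. Microglia markers summed to 315 and 369 TPM with 11 of 12 measured, and none of their genes had an interval above 1 while 4 had one below 1. Oligodendrocyte markers summed to 214 and 226 TPM, most of it Cnp at 169 and 178 TPM. Of these markers 7 of 8 were measured, 0 above and 2 below 1 by interval. Neuron markers summed to 27.9 and 22.3 TPM with all 5 measured. Endothelial markers summed to 4.75 and 4.54 TPM, nearly all of it Flt1, with Cdh5 at 1 read in each library and Pecam1 at 2 and 1. Pericyte and fibroblast markers summed to 2.96 and 4.26 TPM. No marker with a row was at 0 in both libraries. Which of these cells the Klf transcripts came from was not tested, and fewer cells of a type and less RNA per cell cannot be told apart in bulk RNA.

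Klf3, the CtBP-binding repressor (gene 114845), had the highest level of the 10 in both libraries. It stood at 66.4 TPM in the Aβ library and 74.98 TPM in the control library, on 3195 and 3634 reads. The read ratio, Aβ over control after scaling to the library totals, was 0.877 with a 95% counting interval of 0.836 to 0.920. Klf3 was thus the single member below 1. Its ratio stood at percentile 4.37 of the 3956 measured genes with 2000 or more reads over both libraries. By TPM ratio it stood at percentile 12.7 of all 12980 measured genes, which include many read less deeply.

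Klf6 (gene 58954), an activator induced by injury and cytokines, went the other way. Its level was 61.7 TPM in the Aβ library and 50.9 TPM in the control library, on 2515 and 2087 reads. The read ratio was 1.20 (1.13 to 1.27), the highest of the 10, at percentile 97.8 of the same deeply read genes and, by TPM ratio, at percentile 92.4 of all measured genes. Klf6 lay below Klf3 in both libraries. In the control the level intervals of the 2 genes did not overlap, and in the Aβ library they met only between 64.1 and 64.18 TPM. Such an overlap does not show that the levels were equal.

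Klf10 (gene 81813), known as TGF-β-inducible early gene, stood at 54.0 TPM in the Aβ library and 49.3 TPM in the control library. Its 1484 and 1362 reads gave a read ratio of 1.09 (1.01 to 1.17), at percentile 90 of the deeply read genes and, by TPM ratio, at percentile 79.2 of all measured genes. The lower bound of that interval lay just above equality, and a 99% interval included 1.

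In all, 2 members had an interval above 1, against 12% of the 12980 genes measured, and 1 member had an interval below 1, against 12.5%. The 3 together compare with 24.5% of all genes, a share near their own. These 3 were also the members with 2000 or more reads, and among genes so deeply read the interval excluded 1 for 36.8%. Each of the remaining 7 had 603 reads or fewer over both libraries.

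**Figure D2:**
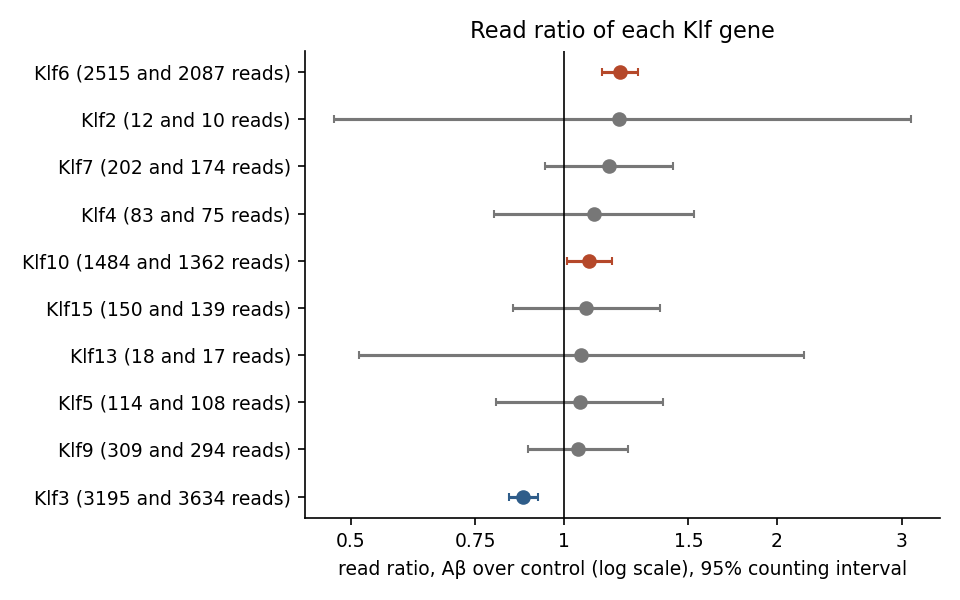
Read ratio of each Klf gene, Aβ over control, on a log axis with 95% counting intervals and the reads with Aβ and in the control beside each name. Klf6 and Klf10 (red) lie above 1, Klf3 (blue) lies below it, and the intervals of the other 7 (grey) include it.

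The balance between Klf6 and Klf3 can be read within each library, where the library total cancels. Klf6 had 0.787 reads for each Klf3 read with Aβ and 0.574 in the control, which is a 1.37-fold difference (1.27 to 1.48). Per length, the Klf6 level was 0.930 of the Klf3 level with Aβ and 0.679 in the control. Klf10 against Klf3 differed 1.24-fold (1.13 to 1.35), and Klf9 against Klf3 differed 1.20-fold (1.01 to 1.42). Klf3 was the single member with a read ratio below 1, so any other member set against it gives a value above 1. Klf6 against Klf10 differed 1.11-fold (1.01 to 1.22). These pairs were chosen after their values were seen. Klf3 made up 29.8% of the summed TPM of the 10 genes with Aβ, against 35.2% without, and Klf6 made up 27.7% and 23.9%. The sum itself was 223 TPM in the Aβ library and 213 TPM in the control library, of which Klf3, Klf6 and Klf10 together gave 81.6% and 82.2%.

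The other members of the activator branch had low levels. Klf7 (gene 363243), known for its part in axon growth, stood at 6.66 TPM in the Aβ library and 5.71 TPM in the control library on 202 and 174 reads, a read ratio of 1.16 (0.941 to 1.43). Klf4 (gene 114505), a pluripotency factor also found in endothelium and macrophages, was at 3.85 and 3.47 TPM on 83 and 75 reads, a ratio of 1.10 (0.798 to 1.53). Klf5 (gene 84410), linked to proliferation of epithelial cells, was at 3.73 and 3.51 TPM on 114 and 108 reads, a ratio of 1.05 (0.802 to 1.38). Each of these was slightly above 1 by an amount within counting error. Klf2 (gene 306330), the shear stress-induced factor of endothelium, had only 12 and 10 reads, or 1.53 and 1.29 TPM. Its ratio of 1.20 (0.474 to 3.09) could not tell a 2-fold difference from equality at this depth.

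Klf9 (gene 117560), the thyroid hormone- and glucocorticoid-induced member, was the fourth in level, at 13.4 TPM in the Aβ library and 12.7 TPM in the control library. Its 309 and 294 reads gave a ratio of 1.05 (0.891 to 1.23). Klf15 (gene 85497), a glucocorticoid-induced regulator of glucose and amino acid metabolism, was at 6.0 and 5.60 TPM on 150 and 139 reads, a ratio of 1.08 (0.849 to 1.37). Klf9 had 2.06 reads for each Klf15 read with Aβ and 2.12 in the control, and the ratio of these was 0.974 (0.728 to 1.30). Klf13 (gene 499171), known as a regulator of Ccl5 in T cells, was listed at 5.84 and 5.71 TPM on 18 and 17 reads, a ratio of 1.06 (0.514 to 2.18).

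The level of Klf13 rests on a short gene length. From the deposited FPKM (fragments per length and library total) and the reads, and taking the library total as the denominator, the length behind its values is 295 bases with Aβ and 282 in the control. The same calculation gave 749 and 734 bases for Klf2, and from 2046 to 4604 bases for the other 8. Klf13 thus had a TPM close to that of Klf15 on 18 reads with Aβ, where Klf15 had 150. Whether that length covers the whole Klf13 transcript was not tested.

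The order by TPM in the control was Klf3, Klf6, Klf10, Klf9, Klf13 and Klf7 (equal to the digits given), Klf15, Klf5, Klf4 and Klf2. In that order the intervals of neighbours overlapped between Klf6 and Klf10, between Klf13, Klf7 and Klf15, and between Klf5 and Klf4. With Aβ the order was Klf3, Klf6, Klf10, Klf9, Klf7, Klf15, Klf13, Klf4, Klf5 and Klf2, with overlaps between Klf3 and Klf6, and between each neighbouring pair from Klf7 to Klf5. The first 4 places and the last were the same in both. By TPM in the control, Klf3 lay at percentile 86.4, Klf9 at 51.9 and Klf2 at 26.9. These percentiles are over all 17049 genes with a row, including those under 1 TPM.

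**Figure D3:**
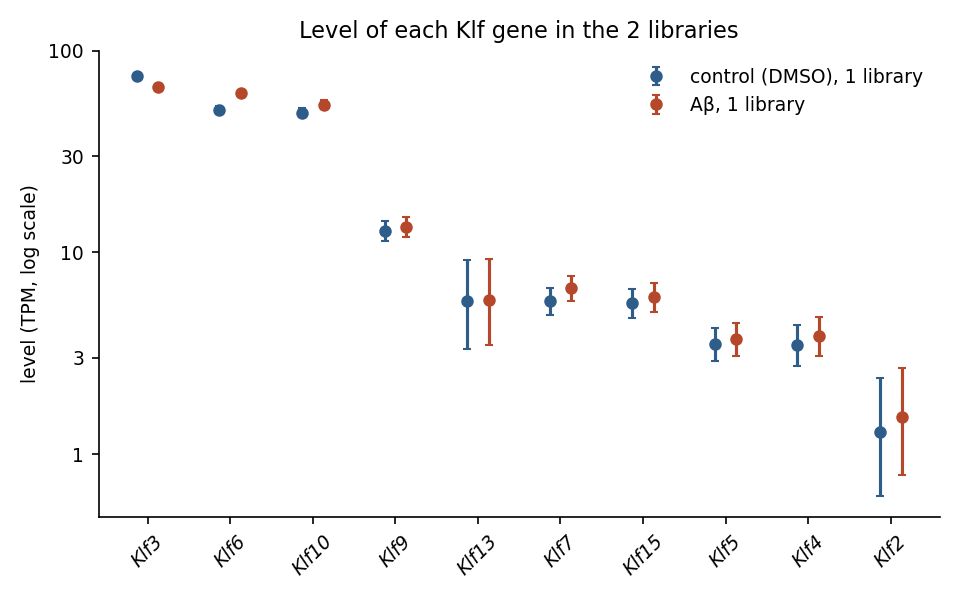
Level of each Klf gene in TPM on a log axis in the control library (blue) and the Aβ library (red), with 95% counting intervals from the reads. Klf3, Klf6 and Klf10 lie between 49.3 and 74.98 TPM, and the other 7 lie at 13.4 TPM or lower.

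By direction alone, 9 members had a read ratio above 1 and 1 below, where 50.5% of all genes measured were above 1. The median log2 read ratio of the 10 was 0.11, against 0.00 over all genes, and the median of the log2 TPM ratio with a pseudocount of 1 was 0.10, against 0.01. With that pseudocount all 10 TPM ratios lay inside the range of 0.734 to 1.39 that held the central 95% of genes. The TPM and read ratios of a member differed by at most 3.15%. The members share 1 pair of libraries, so their directions are not independent of each other.

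**Figure D4:**
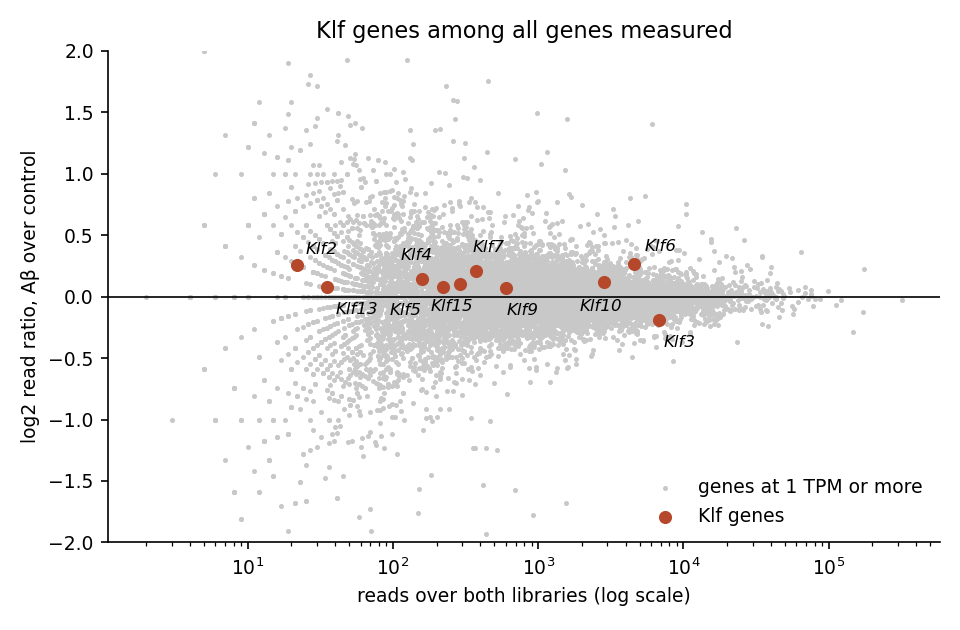
Log2 read ratio of each measured gene (grey) against its reads over both libraries, with the 10 Klf genes in red. Klf6 and Klf3 lie near the upper and lower edge of the genes with similar reads; 40 genes beyond the vertical axis and 52 with no reads in 1 library are not drawn.

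Of 16 further Klf and Sp family genes listed, 15 had a row and 9 were measured at 1 TPM or more. Of these 9, 1 had an interval above 1, 2 had one below 1 and 6 had neither. Klf16, a Sin3-binding repressor, was higher in the Aβ library, at 30.5 and 26.9 TPM (1.13, 1.01 to 1.25). Klf11, a close relative of Klf10, was at 3.22 and 2.36 TPM (1.30, 0.967 to 1.76). Klf12, a CtBP-binding relative of Klf3, was at 0.93 and 1.14 TPM (0.869, 0.653 to 1.16), and Klf8, the third of that branch, had 1 and 4 reads. The counts in this and the following lists are to be read against the same shares of all measured genes, 12% with an interval above 1 and 12.5% below. The Sp factors share the zinc finger domain and the GC box. Sp2 (0.828, 0.720 to 0.951) and Sp4 (0.807, 0.690 to 0.942) were lower with Aβ. Sp1 (0.986, 0.933 to 1.04) and Sp3 (0.997, 0.929 to 1.07), the broadly expressed pair, had intervals that included 1.

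Transcripts of the proteins that Klf factors recruit lay close to equality. Of 14 cofactor genes, 1 had an interval above 1 and 2 below, with a median log2 read ratio of −0.03. Ctbp1, the corepressor of Klf3, was higher in the Aβ library, at 262 and 241 TPM (1.08, 1.04 to 1.12). Sin3a, the scaffold of the Sin3 complex, was lower at 27.2 and 29.4 TPM (0.917, 0.852 to 0.988), as was the acetyltransferase gene Crebbp (0.890, 0.806 to 0.983). Fhl3, a LIM-domain partner of Klf3, was at 0.923 (0.834 to 1.02). Of 5 ubiquitin ligases that act on Klf proteins, 0 had an interval that excluded 1. Wwp1 was at 1.03 (0.941 to 1.13), Fbxw7 at 0.953 (0.801 to 1.13), Smurf1 at 0.951 (0.879 to 1.03) and Siah1 at 1.13 (0.994 to 1.28). Fbxo32 was at 0.675 (0.380 to 1.18) on 23 and 34 reads.

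Among signals known to induce Klf genes, the kinase cascade of MEK5 and ERK5 with its MEF2 factors, which drives Klf2 and Klf4 in endothelium, had all 7 genes above 1, where 50.5% of all genes were. The interval lay above 1 for 4 of the 7 (12% of all genes) and below 1 for 0 (12.5% of all genes), with a median log2 read ratio of 0.20. Mef2c was higher at 6.39 and 4.72 TPM (1.34, 1.15 to 1.56) and Mef2a at 15.5 and 12.9 TPM (1.16, 1.05 to 1.29). Mapk7, which encodes ERK5, was at 1.15 (1.02 to 1.30) on reads that were not whole numbers. The remaining gene with an interval above 1 was Mef2d (1.13, 1.06 to 1.20), named after its value was seen. Map3k2 was at 1.18 (0.870 to 1.60). Beside these, the intervals of Klf2 and Klf4 included 1. Mef2c is also expressed by neurons and microglia. Of the 5 neuron markers 2 had an interval above 1 and 1 below, of the 11 measured microglia markers 0 were above and 4 below, and their part in the Mef2c value was not tested.

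Glucocorticoid and thyroid hormone receptors and induced genes, the setting of Klf9 and Klf15, had 14 of 17 measured. The interval lay above 1 for 3 and below 1 for 1, together 4 of 14, near the 24.5% of all genes, with a median log2 read ratio of 0.02. The clock gene Per1 was higher in the Aβ library, at 22.3 and 14.9 TPM (1.49, 1.36 to 1.64), and so were the EGF receptor inhibitor Errfi1 (1.27, 1.20 to 1.34) and the thyroid hormone receptor Thrb (1.47, 1.07 to 2.02). The glucocorticoid receptor Nr3c1 was at 33.5 and 33.0 TPM (1.00, 0.944 to 1.07) and the receptor Thra, with reads that were not whole, at 0.908 (0.817 to 1.01). The gene below 1 was Cdkn1c, a cell cycle inhibitor, on 10 and 26 reads (0.384, 0.165 to 0.822), named after its value was seen.

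The TGF-β list, which bears on Klf10, had all 13 genes measured, 1 with an interval above 1 and 2 below, and a median log2 read ratio of −0.04. The repressor Tgif1 was higher in the Aβ library, at 75.2 and 62.3 TPM (1.21, 1.09 to 1.34). The ligand Tgfb2 was lower at 1.85 and 2.67 TPM (0.710, 0.530 to 0.947), and Tgfb3 was at 0.827 (0.625 to 1.09). In the gp130 and STAT3 list, which bears on Klf6, the median log2 read ratio was −0.06. By interval, 2 of 7 were above 1 and 2 below, against 12% and 12.5% of all genes. Among genes with 2000 or more reads, to which Il6st and Stat3 belong, the interval excluded 1 for 36.8%. The cytokine Lif was higher on 201 and 102 reads (1.97, 1.54 to 2.52), though its TPM of 10.02 and 8.42 stood closer together. The shared receptor subunit Il6st was lower (0.875, 0.834 to 0.918), Stat3 was at 166 and 171 TPM (0.961, 0.931 to 0.993), and the feedback inhibitor Socs3 was at 0.939 (0.869 to 1.01). The other gene above 1 was Jak1 (1.062, 1.012 to 1.115), with reads that were not whole, named after its value was seen. By reads, Lif, Jak1 and Klf6 were thus higher while Il6st and Stat3 were slightly lower.

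Of 6 genes for serum response factor and its cofactors, 1 had an interval above 1 and 1 below, and the median log2 read ratio was 0.04. Srf was at 25.4 and 24.6 TPM (1.02, 0.935 to 1.12). Elk1 was higher (1.20, 1.08 to 1.35), Elk4 was lower (0.933, 0.885 to 0.984) and Mkl2 was at 1.28 (0.935 to 1.76).

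Of 13 genes listed as targets of Klf proteins in other tissues, 11 had a row and 6 were measured, with a median log2 read ratio of 0.11. The interval lay above 1 for 1 of the 6 and below 1 for 0. Cdkn1a, the p21 cell cycle inhibitor and a known target of Klf4 and Klf6, was at 118 TPM in the Aβ library and 102 TPM in the control library (1.15, 1.08 to 1.22). Thbd, the thrombomodulin gene and a target of Klf2, was at 2.57 and 1.88 TPM (1.36, 0.979 to 1.90). Bcat2, a branched-chain amino acid enzyme under Klf15, was at 0.826 (0.653 to 1.04).

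**Figure D5:**
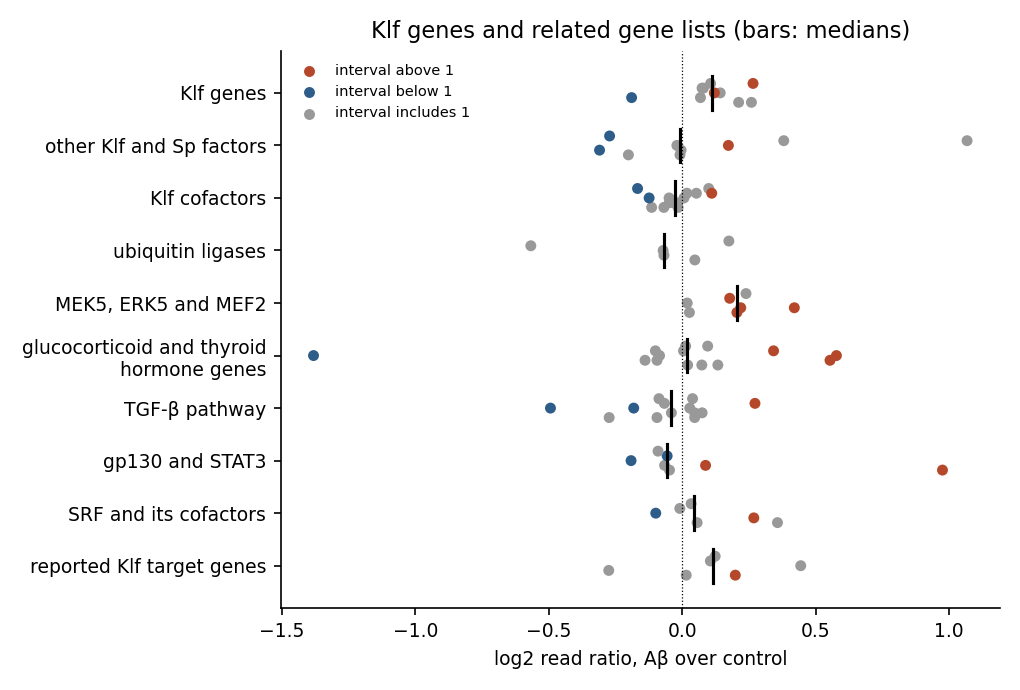
Log2 read ratio, Aβ over control, of each measured gene in the Klf set and 9 related lists, with the median of each as a black bar. Red points have a counting interval above 1, blue points one below 1 and grey points neither; the median is 0.11 for the Klf genes and 0.20 for the MEK5, ERK5 and MEF2 list.

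The authors' deposited table of gene ontology terms, labelled as covering genes higher with Aβ, names 246 genes over 282 terms, from a set of 391 genes. In the authors' deposited table Klf6 was the member named, under cytokine-mediated signaling pathway (31 genes, fold enrichment 2.79, adjusted p = 5.87e-05) and under tissue remodeling (15 genes, fold enrichment 2.85, adjusted p = 0.0106). The 246 genes had read ratios from 1.19 upward in the expression table, with a median of 1.33. Klf6 stood near the lower end of them, with 15 of the 246 below its ratio. Among all measured genes, 1249 had a read ratio at or above that of Klf6, more than the 391 of the set. How the set was picked was not given.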

How the data were processed

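RNA-seq libraries were analysed for 2 samples, 1 with Aβ and 1 control, grouped by the treatment label because Aβ appears in the treatment protocol of both. The submitters' processing notes name Bowtie2 and the build Rnor_6.0; for the counting tool and the annotation, nothing was given in the labels. For each gene the authors deposited estimated counts of reads, TPM and FPKM. A deposited pair of normalized counts, here called a score, equalled the rounded-up read count of each of the 17049 rows and was not used. The authors' deposited enrichment table holds numbers (counts) of genes, ratios (fold enrichment and rich factor), p-values and z scores, per the file headers.

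Read ratios were computed from reads rounded to whole numbers and scaled to the library totals, with 95% intervals from the exact (Clopper-Pearson) binomial bounds of the Aβ share of a gene's reads. Level intervals are exact Poisson intervals of the reads. The log2 TPM ratio had a pseudocount of 1. "Higher" and "lower" are used of genes whose interval excludes 1, and for the rest only values are meant. These intervals compare 2 libraries, not the conditions. Background shares were taken over the genes that reached 1 TPM in 1 library or both. The interval calculation was tested on simulated Poisson counts. These held counting error only, which is what the interval assumes, so variation between cultures was not tested.

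The members and the 9 gene and 7 marker lists were chosen with earlier results of these data known. Named genes are all members, the 3 genes of each related list with the largest absolute log2 read ratio among those with 50 or more reads, and 15 always named. The cell type markers named were chosen after their values were seen. Alternatives were TMM factors (edgeR 4.0.16), size factors (DESeq2 1.42.0), rounding down, other pseudocounts, CPM, other folds, a 99% interval and other backgrounds. Python 3.11.15 and scipy 1.17.1 were used. Promoters came from a RefSeq table of GRCr8, another build than that of the reads, by symbol and gene number.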

Additional observations from a re-analysis of the deposited data

How the results depend on the processing

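The 10 read ratios kept their direction with TMM factors (0.999946 and 1.00005) and with DESeq2 size factors (1 and 1), which hardly rescaled the libraries. Rounding down could not change them, since the members had whole reads. The 10 log2 TPM ratios kept their direction with pseudocounts of 0.1 and 5 and with CPM. A pseudocount added to both libraries cannot reverse a direction, so these checks say little about how firm the directions are. In each of these 60 values the shift was smaller than the counting interval. With a 99% interval the number of members higher by reads went from 2 to 1, with Klf10 no longer counted, and the number lower stayed at 1. No member passed 1.5-fold by TPM or 2-fold by CPM. The share of all genes higher by reads was 9.46% over genes with a read in either library and 13.1% over genes with 200 or more reads, against 12%. The counts in the 9 related lists were unchanged under the scaling and rounding alternatives. No paired analysis was possible because each group has 1 library, and for the same reason no replicate could be left out. Depth limits Klf2 and Klf13 most: their 95% intervals span 6.53-fold and 4.25-fold.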
